A study of Mus musculus with 4 samples.

Results

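Mouse zinc finger genes with a symbol of the form Zfp followed by a number were examined in direct RNA nanopore reads, each with an estimated poly(A) tail length. Members were chosen on read number: symbols with at least 40 reads with a tail above 0 nt over the 4 libraries, leaving out Zfp42, the pluripotency marker Rex1. This gave 53 genes of the 356 such symbols with any read, out of 13831 symbols in all. Read number summed over libraries is therefore a description of the choice and not a finding. The study set wild-type (WT) mouse embryonic stem cells of the J1 background against cells of the same background knocked out for Mov10 (KO), an RNA helicase, with 2 libraries per genotype, called WT 1, WT 2, KO 1 and KO 2. Both genotypes were grown in medium with fetal calf serum and the cytokine LIF, with no treatment. How the knockout was made, how many clones it came from, and whether the libraries of a genotype came from separate cultures are not given in the sources used here. The p-values therefore measure only the spread between these libraries, which may be technical.

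The zinc finger genes named Zfp are a naming group rather than one pathway. Many encode KRAB zinc finger proteins, which bind DNA through arrays of C2H2 fingers and recruit the corepressor Trim28 and the histone methyltransferase Setdb1; in embryonic stem cells this machinery silences retroelements and protects imprinted regions. Others handle RNA or protein: the Zfp36 family binds AU-rich elements and brings deadenylases to messenger RNA, and others act in ribosome assembly or as ubiquitin or SUMO ligases. The poly(A) tail is added to nearly all messenger RNAs in the nucleus and is shortened in the cytoplasm, and its length is tied to stability and translation.

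The libraries held 439535 (WT 1), 351133 (WT 2), 683239 (KO 1) and 430012 (KO 2) reads above 0 nt, with median tails of 97.3, 105.6, 105.8 and 98.1 nt. Mov10 had 26 and 14 reads in WT 1 and WT 2. It had 0 reads in KO 1, where 3 reads or 4.39 reads per 1000000 reads (RPM) is the limit that a count of 0 allows, and 1 read in KO 2. All 8 pluripotent stem cell markers checked, Pou5f1, Nanog and Sox2 among them, had reads in every library, with summed levels of 6795 to 8974 RPM. Of 6 fibroblast markers, Col1a1, Col1a2, Col3a1 and Dcn had no read in any library, and the summed level of the list was 8.54 to 17.6 RPM. Of 6 markers of early differentiated cells, 4 had no read, and the list reached at most 4.39 RPM.

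The 53 members had 6786 reads, 65.0% of the reads on Zfp symbols other than Zfp42, and the 303 symbols below the limit had 3659. Member totals ran from 40 reads (Zfp141) through a median of 78 to 525 (Zfp992), and 18 members had 100 reads or more. The nearest symbols outside were Zfp664 with 39 reads and Zfp639, Zfp423, Zfp955b and Zfp384 with 38 each, and the nearest inside after Zfp141 was Zfp7 with 41. These symbols near the limit were named after their values were seen. Only 16 members had the 20 reads in each library required for the test of tail length; all 53 passed the filter for read number, a mean of 10 reads per library, as the choice of members makes certain.

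Many of the members lay together. In the order of genes given by RefSeq for GRCm38.p6, 13 members stood in one run on chromosome 4 with at most 30 genes between neighbours. In order they were Zfp990, Zfp980, Zfp987, Zfp600, Zfp992, Zfp981, Zfp993, Zfp991, Zfp988, Zfp985, Zfp979, Zfp534 and Zfp984. The span from the first to the last holds 75 annotated genes, 17 of them protein-coding and 51 pseudogenes. The distal part of mouse chromosome 4 is known for a recently expanded cluster of KRAB zinc finger genes. These 13 genes held 2573 reads, 37.9% of the reads of the members. The run was delimited after the values had been seen, so its values are a description.

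Promoter sequences are shown for this run because they let the likeness of its genes be seen directly. RefSeq promoter windows of GRCm38.p6, 250 bases before to 50 after an annotated start, matched 41 of the 53 members. A stretch of 10 letters was sought that occurs in the windows of the most run members, and among the 8 that tied, the one in the fewest windows of the whole table was taken. This stretch, AGCTAATTAA, was in 9 of the 10 run members with a window, all but Zfp993, and, on either strand, in 0 of the 31 other members with one. It was in 22 of all 32851 windows, or 0.0670%. Zfp600 had a further window without the stretch, so by windows the stretch was in 9 of 11 in the run. It was picked for its presence in the run, so its frequency there is a description. Each line gives 30 bases, 5′ to 3′ on the strand of the gene, with the stretch in capitals.
Zfp980: agaactgggaAGCTAATTAAttaaaaattc
Zfp987: agaactgggaAGCTAATTAAttaaaaagtc
Zfp600: agaactgggaAGCTAATTAAgtaaaaagtc
Zfp981: agaagtgggaAGCTAATTAAtttaaaaggt
Zfp988: agaactgggaAGCTAATTAAttaaaaagtc
Zfp985: agaactgggaAGCTAATTAAttaagaagtc
Zfp979: agaactgggaAGCTAATTAAgtaaaaagtc
Zfp534: agaactgggaAGCTAATTAAttaaaaagtc
Zfp984: agaattgggaAGCTAATTAAttaaaaggtc

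On the plus strand of GRCm38.p6 these lie at chr4:145670551-145670580 (Zfp980), chr4:146097156-146097185 (Zfp987), chr4:146156687-146156716 (Zfp600), chr4:146514751-146514780 (Zfp981), chr4:147305485-147305514 (Zfp988) and chr4:147553136-147553165 (Zfp985). On the minus strand they lie at chr4:147642625-147642654 (Zfp979), chr4:147702713-147702742 (Zfp534) and chr4:147809918-147809947 (Zfp984). In each of the 9 the capitals begin upstream of the annotated start, between position -159 (Zfp981) and position -101 (Zfp534) relative to it. Zfp987, Zfp988 and Zfp534 have the same printed bases, and so do Zfp600 and Zfp979. Over the whole window, in a global alignment, Zfp600 was 94.8% identical to Zfp979 and 88.6% to Zfp980, and Zfp534 was 89.8% identical to Zfp988. Rex2, a gene of the same span outside the naming rule, was 99.3% identical to Zfp600. Shared letters are a description and not a binding site.

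Reads were also assigned across these genes. The table gives each read both an Ensembl transcript and a gene symbol, and on 30 transcripts with member reads more than 1 symbol occurred, with 2 or more member symbols on 21 of them. All 14 members with any read on such a transcript had over 50% of their reads there; 11 of the 14 belonged to the run, and the others were Zfp934, Zfp960 and Zfp97. In all, 2464 member reads, 36.3%, lay on shared transcripts, against 53.4% of all reads in the table, so sharing as such was no more frequent among the members. The 11 run members had 99.3 to 100% of their reads on a transcript with a second symbol, as the plot of symbols on shared transcripts shows. Outside the run, Zfp960 and Zfp97 had 100% there too. As few as 1 read with another symbol made a transcript shared: ENSMUST00000148762.3 carried 167 reads of Zfp988 and 1 of Zfp534. On transcripts led by their own symbol, these 11 members had from 64.9% (Zfp600) to 94.9% (Zfp992) of their reads. The share of all genes with nearly all reads on shared transcripts was not counted. How symbols were given to reads is not stated, so values of these members are uncertain as to which gene copy they describe.

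**Figure D1:**
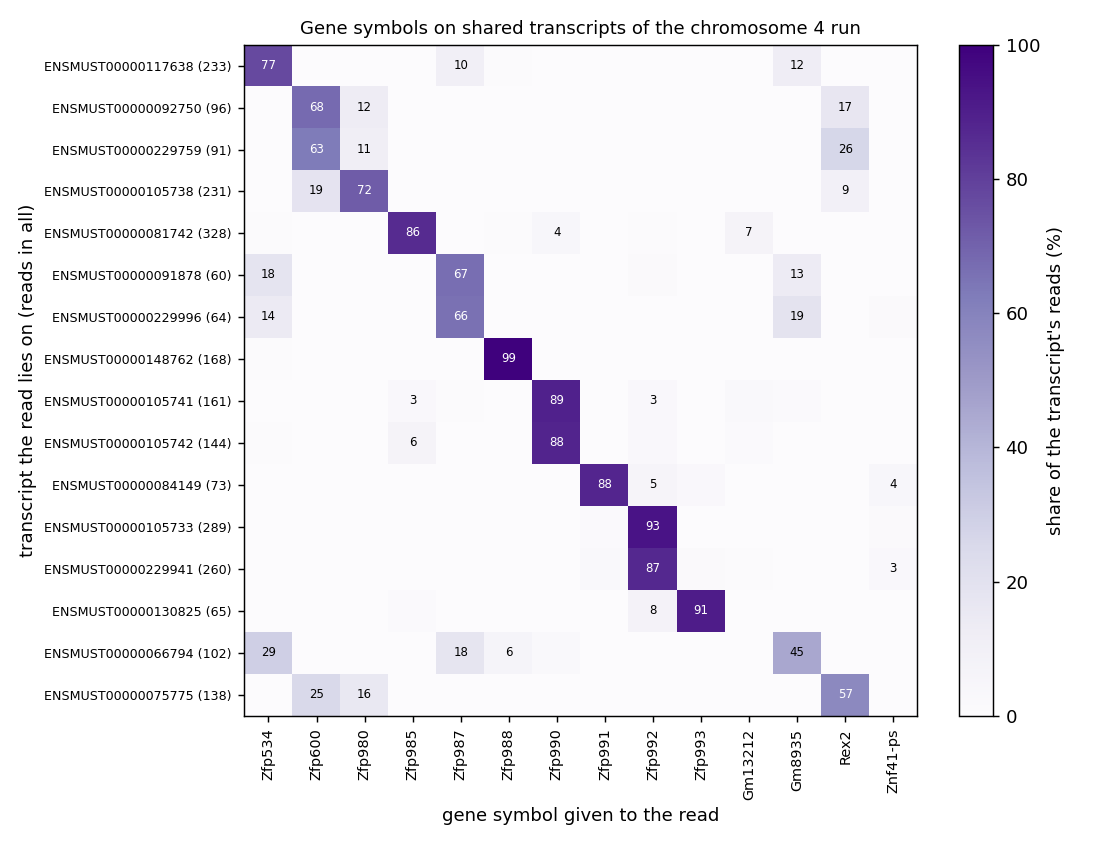
Share of the reads of each shared transcript (rows, with the read total in brackets) that carries each gene symbol (columns), for the 16 transcripts with at least 40 reads, 20 or more of them carrying symbols of run members; shares of 3% or more are printed in the cells. Most rows have one leading symbol, while Zfp534, Zfp987 and Gm8935, and likewise Zfp600, Zfp980 and Rex2, share rows.

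Transcript ENSMUST00000117638.1 carried 180 reads of Zfp534, 28 of Gm8935, 24 of Zfp987 and 1 of Zfp988. On ENSMUST00000066794.8 the leading symbol was Gm8935 with 46 reads, followed by Zfp534 with 30 and Zfp987 with 18. A second set joined Zfp600, Zfp980 and Rex2: ENSMUST00000105738.8 carried 166 reads of Zfp980, 43 of Zfp600 and 21 of Rex2. In contrast, Zfp600 and Zfp979, whose promoters are more alike than those of Zfp600 and Zfp980, had 0 transcripts in common. Outside the run, Zfp960 and Zfp97, neighbours on chromosome 17, shared ENSMUST00000127027.1 with 58 and 29 reads and ENSMUST00000147630.1 with 7 and 39. The share of a member's reads on transcripts that its own symbol led was lowest for Zfp97 (57.4%), Zfp600 (64.9%) and Zfp987 (65.1%). Giving every read to the leading symbol of its transcript, an alternative chosen after seeing the data, changed Zfp97 from 68 to 46 reads and Zfp960 from 65 to 88, but Zfp600 only from 222 to 214 and Zfp534 from 237 to 233. Zfp97, Zfp960 and Zfp987 are named here after their values were seen.

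Tail lengths of the members lay mostly above those of other genes. The test of tail length covered 1935 genes, and the 16 members among them had a median tail of 116.8 nt in WT 1, 127.7 nt in WT 2, 117.1 nt in KO 1 and 105.3 nt in KO 2. The other 1919 genes had 102.1, 109.2, 109.9 and 101.9 nt in the same order. The members were thus above the other genes in each of the 4 libraries, by 0.19, 0.23, 0.09 and 0.05 on the log2 scale, a mean of 0.14 ± 0.08 (SD over 4 libraries). By the mean of the 4 library medians, 13 of 16 members were above the median of all genes (105.8 nt) and 9 were in the upper quartile. With a minimum of 10 reads, 37 members gave a mean of 0.09 and KO 2 then had the members level with the other genes (102.3 against 102.6 nt). With transcripts of 1 symbol alone, 9 members gave a mean of 0.09. KO 1 then had them level with the other genes (111.3 against 111.0 nt). Over the pooled reads, 46 of the 53 members exceeded the median of all reads, 102.0 nt, which is no comparison with other genes. That median weights genes by their reads, and the share of all genes above it was not counted. The median of all genes tested, 105.8 nt, was itself above it. The pooled medians ran from 77.9 nt (Zfp428) to 181.7 nt (Zfp292, named after its values were seen), with a median of 113.8 nt over the members.

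**Figure D2:**
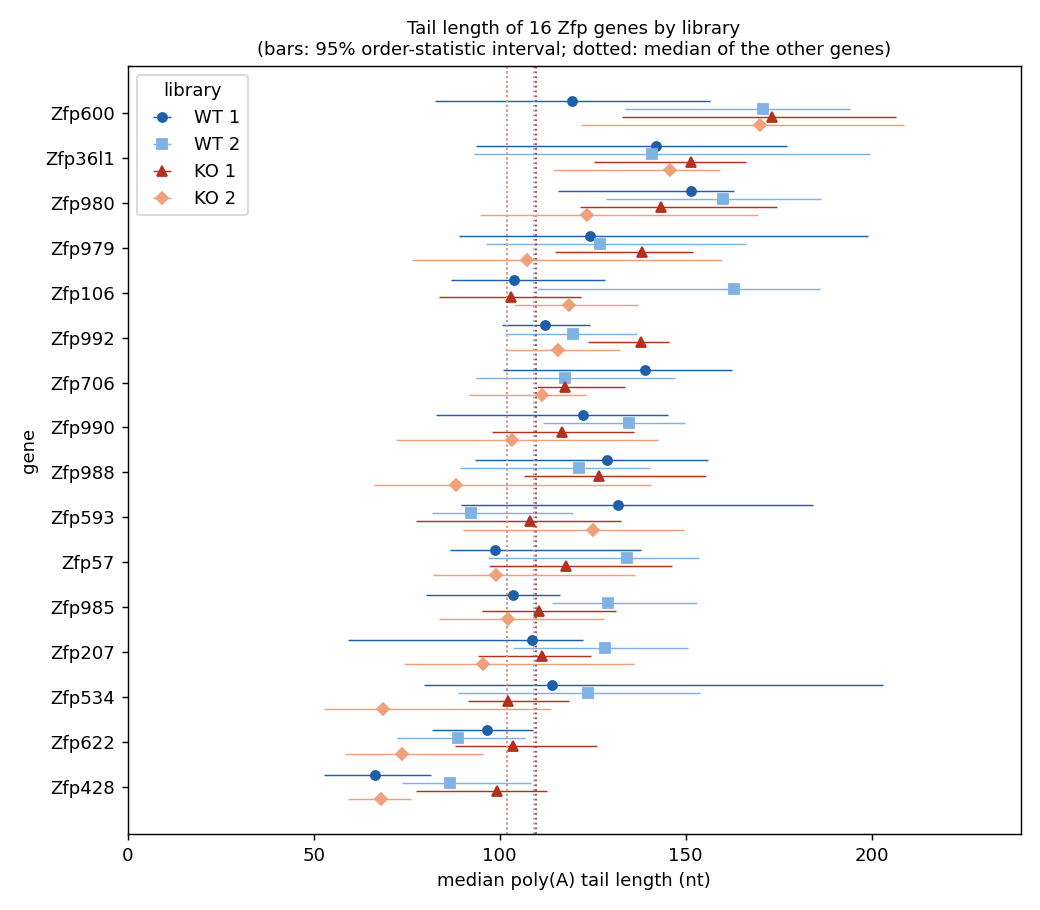
Median poly(A) tail length in nt (horizontal axis) of the 16 Zfp genes with at least 20 reads in each library (rows, longest first), with 1 point per library; bars are 95% order-statistic intervals over reads and dotted lines the median over the other 1919 genes in each library. Zfp600, Zfp36l1 and Zfp980 stand to the right of all dotted lines in every library, and Zfp428 stands to the left of all of them.

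The longest tails belonged to Zfp600, Zfp36l1 and Zfp980. Zfp600, a zinc finger gene of the chromosome 4 run, had medians of 119.4 nt in WT 1, 170.9 nt in WT 2, 173.3 nt in KO 1 and 170.0 nt in KO 2; its mean of 158.4 nt was longer than that of 99.6% of the genes tested. WT 1 stood apart below the other 3 libraries. Zfp36l1, which binds AU-rich elements and recruits deadenylases, had 142.1, 140.9, 151.5 and 145.8 nt, the closest agreement of the 16 between libraries (SD of 4 libraries 4.78 nt). Zfp980, also of the run, had 151.4, 159.9, 143.4 and 123.6 nt, with KO 2 lowest. The mean levels of Zfp36l1 and Zfp980, 145.1 and 144.6 nt, differed by less than their spread.

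The shortest tails belonged to Zfp428, Zfp622 and Zfp534. Zfp428 had 66.4 nt in WT 1, 86.5 nt in WT 2, 99.2 nt in KO 1 and 68.0 nt in KO 2, and only 1.96% of the genes tested had a shorter mean. It had 73 to 148 reads per library. Its 2 main transcripts had pooled medians of 82.5 nt (223 reads) and 74.1 nt (172 reads). The 95% order-statistic interval of the first, 73.85 to 104.18 nt, included the median of all reads, 102.0 nt. Its median in KO 1 was 111.6 nt. The interval of the second, 62.96 to 81.44 nt, lay below the median of all reads. Zfp622, a maturation factor of the large ribosomal subunit, had 96.7, 88.9, 103.7 and 73.9 nt. Zfp534, a gene of the chromosome 4 run, had 114.2, 123.8, 102.3 and 68.7 nt, and its mean of 102.3 nt lay inside the range of the other genes, with 39.4% of them shorter.

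Of the members listed here under RNA and protein handling, Zfp106, an RNA-binding protein, had 103.8, 163.0, 103.1 and 118.7 nt, with WT 2 far above the others. Zfp706, a small zinc finger protein, had 139.0, 117.7, 117.5 and 111.3 nt, with WT 1 highest. Zfp593, a ribosome assembly factor, had 131.8, 92.2, 108.2 and 125.0 nt, and its genotypes overlapped. Zfp207, which binds the spindle checkpoint protein Bub3, had 108.8, 128.4, 111.3 and 95.6 nt. The 6 members of this list with enough reads spanned means of 90.8 to 145.1 nt, from Zfp622 to Zfp36l1, against 80.0 to 158.4 nt for all 16.

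Of the members tied to imprinting, Zfp57, a KRAB protein that keeps methylation at imprinted regions, had 98.6, 134.3, 117.8 and 99.1 nt. The 5 remaining members of the run lay between the extremes named above. Zfp979 had 124.3, 127.0, 138.4 and 107.3 nt, and Zfp992, the member with most reads, 112.3, 119.8, 138.1 and 115.7 nt. Zfp990 had 122.4, 134.6, 116.7 and 103.4 nt. In these genes the highest library was KO 1 or WT 2. Zfp988 had 129.0, 121.4, 126.6 and 88.3 nt, and Zfp985 103.7, 129.2, 110.7 and 102.3 nt. Ranked by mean, the 16 members form 15 neighbouring pairs. In 14 of them the means differed by less than the larger SD over libraries, and only the step from Zfp980 (144.6 nt, SD 15.5) to Zfp979 (124.2 nt, SD 12.8) was larger than both SDs.

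Transcripts of a gene could differ. On 4 transcripts with at least 20 reads, Zfp600 had pooled medians of 140.1 to 181.5 nt, all above the median of all reads. Zfp979 had 120.6 nt on ENSMUST00000105720.7 (157 reads) and 152.1 nt on ENSMUST00000037565.13 (51 reads), whose 95% order-statistic intervals, 104.8 to 141.6 and 109.5 to 171.5 nt, overlapped. Zfp992 had 118.1 nt on one transcript (270 reads) and 130.4 nt on the other (226 reads), with overlapping intervals too. Pooling weights libraries by their reads, and these intervals cover read sampling only.

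At the level of reads, the median tail of the run was longer than that of the other members in each of the 4 libraries. The 95% order-statistic intervals overlapped in WT 1 (110.6 to 124.3 against 104.2 to 115.0 nt) and KO 2 (101.6 to 120.8 against 95.5 to 104.8 nt). They did not overlap in WT 2 and KO 1. The pooled reads of the run had medians of 116.7, 129.2, 128.5 and 111.3 nt in WT 1, WT 2, KO 1 and KO 2, and those of the 40 other members 109.0, 110.0, 115.0 and 100.9 nt. Tails of 150 nt or more made up 31.7, 38.1, 38.7 and 33.6% of run reads. The same share was 30.5, 30.7, 30.2 and 25.7% in the other members and 18.8, 24.0, 23.7 and 19.6% over all genes. The pooled run reads thus exceeded those of the other members by 1.20 (WT 1), 7.37 (WT 2), 8.52 (KO 1) and 7.85 (KO 2) percentage points. Such shares weight genes by their reads, and no share weighted by gene was compared. Over all libraries the share per gene ran from 28.2% (Zfp984, 71 reads) to 52.3% (Zfp600, 222 reads) in the run. In the other members it ran from 14.7% (Zfp428, 395 reads) to 59.1% (Zfp292, 44 reads), so the groups overlapped. Zfp984 and Zfp292 are named here after their values were seen. Tails under 30 nt made up 1.06, 5.22, 3.64 and 5.86% of run reads, against 2.35, 3.02, 1.55 and 2.75% of all reads. The same share was 3.44, 4.59, 2.35 and 4.61% in the other members, above all reads in each of the 4 libraries. The run was above all reads in WT 2, KO 1 and KO 2. In WT 1 its 95% Wilson interval, 0.455 to 2.47%, held the value of all reads. The plot of cumulative tail lengths shows both ends.

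**Figure D3:**
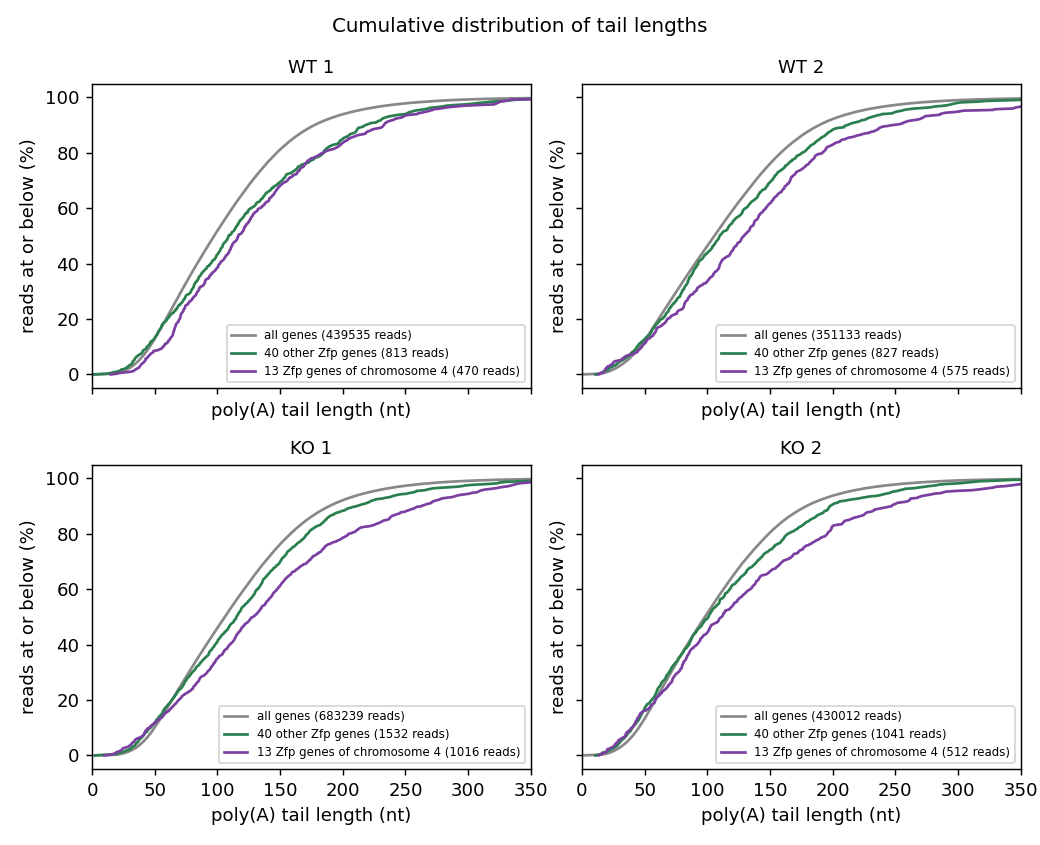
Cumulative share of reads (percent, vertical axis) by poly(A) tail length in nt (horizontal axis, up to 350 nt) in each library, for all genes, the 13 Zfp genes of chromosome 4 and the 40 other Zfp genes; the legend gives the reads in each curve. The purple curve runs to the right of the grey one above about 100 nt in each of the 4 libraries.

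The comparison of genotypes asked whether tail length or read number of these genes differed between KO and WT. For tail length none of the 16 members passed an adjusted p of 0.05 in limma's test across all 1935 genes, and 1 had an unadjusted p under 0.05. Over all genes the test also gave 0 calls, a background of 0%, with 45 genes (2.33%) at an unadjusted p under 0.05. The median log2 change of the members was -0.11, against 0.01 over all genes tested, and 5 of the 16 were longer in KO, as were 1003 of the 1935. That median was -0.01 without KO 2, -0.05 without WT 2, -0.14 without WT 1 and -0.21 without KO 1. Of the 16, the 8 members of the run had a median of -0.17 with 2 longer in KO, and the other 8 had -0.09 with 3 longer. Standard errors of the members' changes ran from 0.15 to 0.20.

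Zfp534 had the smallest p. Its library medians averaged 119.0 nt ± 6.80 (SD, n = 2) for WT and 85.5 nt ± 23.8 (SD, n = 2) for KO, a log2 change of -0.50 (standard error 0.17; limma, unadjusted p = 0.00319, Benjamini-Hochberg adjusted p = 0.9998). Both KO libraries were below both WT libraries, but KO 2 lay 33.6 nt below KO 1, while the genotype means differed by 33.5 nt. Without KO 2 the log2 change was -0.22 and without KO 1 it was -0.79. With each read given to the leading symbol of its transcript it was -0.35. On ENSMUST00000117638.1, which carries 180 of its 237 reads, the library medians were 151.5, 122.5, 106.3 and 75.2 nt, with both KO libraries below WT. These reads are part of those tested and no separate evidence. On ENSMUST00000066794.8, with 2, 8, 17 and 3 reads, the medians were 68.1, 140.7, 94.45 and 42.2 nt, with WT 1 below KO 1.

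Zfp600 had a log2 change of 0.27 (standard error 0.17, unadjusted p = 0.128, adjusted p = 0.9998 by limma), with averages of 145.1 nt ± 36.4 (SD, n = 2) for WT and 171.7 nt ± 2.33 (SD, n = 2) for KO. That value depended on WT 1: it was 0.01 without WT 1 and 0.52 without WT 2, where WT 1 is the lone WT library. With each read given to the leading symbol of its transcript it was 0.16, and with the mean of log2 tail length 0.11. Zfp990, with 128.5 nt ± 8.63 (SD, n = 2) for WT and 110.0 nt ± 9.45 (SD, n = 2) for KO, had a change of -0.23 (standard error 0.16, unadjusted p = 0.164, adjusted p = 0.9998 by limma). Without KO 2 it was -0.14. Neither change passed the threshold.

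In 4 of the 16 members, Zfp534, Zfp706, Zfp980 and Zfp990, both KO libraries were below both WT libraries, and over all genes tested 11.8% were. In 1, Zfp36l1, both were above, against 14.7% of all genes tested. Libraries of the same genotype also differed: the tail was longer in WT 2 than in WT 1 in 11 of 16 members (65.4% of all genes) and longer in KO 1 than in KO 2 in 14 of 16 (74.4%). The part that this order of libraries has in the values above was not tested.

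**Figure D4:**
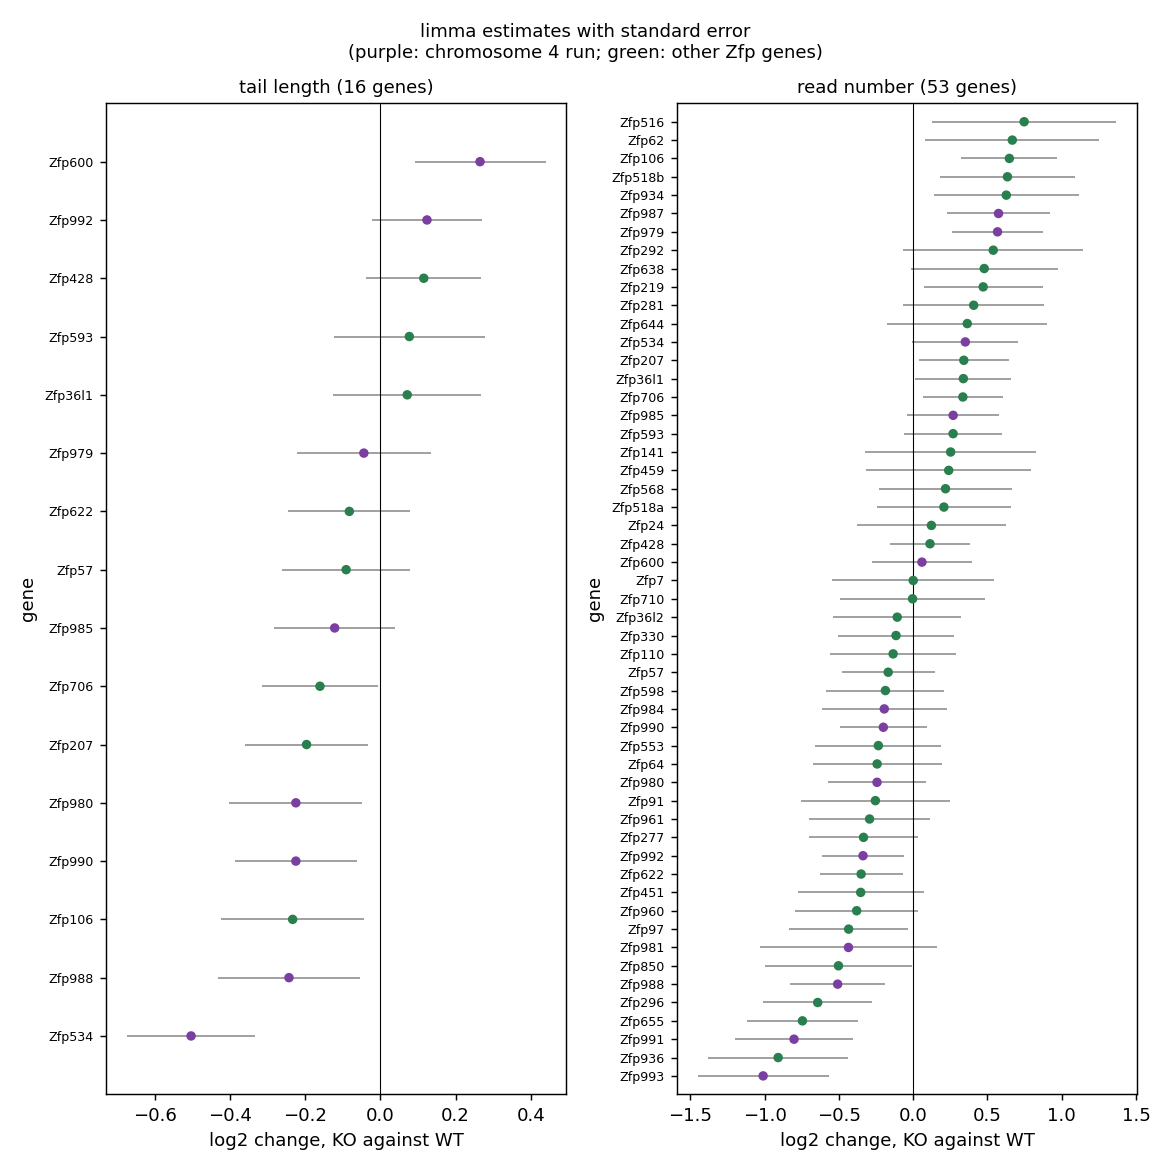
Log2 change from WT to KO (horizontal axis) in tail length for the 16 Zfp genes tested (left) and in read number for all 53 (right), one row per gene; points are limma estimates and bars 1 standard error, purple for the chromosome 4 run and green for the others. Zfp534 is lowest on the left at -0.50 and Zfp993 lowest on the right at -1.01, and no point passed an adjusted p of 0.05.

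Read number, a measure of RNA abundance that was scaled between libraries, did not pass the threshold in any of the 53 members: limma's voom gave 0 calls among them and 1 unadjusted p under 0.05. Over all 4815 genes the calls were 0, a background of 0%, while an unadjusted p under 0.05 occurred in 498 (10.3%). Limma-trend gave 0 calls too, with 469 genes at an unadjusted p under 0.05. In bulk RNA fewer cells and less RNA per cell cannot be told apart. The median log2 change of the members was -0.004, against -0.006 over all genes, and 26 of 53 were higher in KO. Without WT 2 that median was 0.21 and without WT 1 it was -0.15. Beside this, 37 of 53 (69.8%) had more scaled reads in WT 2 than in WT 1, against 49.5% of all genes. Both KO libraries were above both WT libraries in 10 members and below in 10 (backgrounds of 20% and 20.5%).

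Zfp993, a zinc finger gene of the run, had 26 and 13 reads in WT 1 and WT 2, and 18 and 10 reads in KO 1 and KO 2. After scaling WT averaged 53.8 RPM ± 22.0 (SD, n = 2) and KO 25.2 RPM ± 2.71 (SD, n = 2), a log2 change of -1.01 (standard error 0.44; limma, unadjusted p = 0.0340, adjusted p = 0.449). After scaling both KO libraries were lower than both WT libraries. Without WT 2 its adjusted p was 0.0286 by limma, with a change of -1.41, in a fit where 367 genes passed, and without WT 1 the change was -0.58; over the alternatives its adjusted p ran from 0.0286 to 0.998. Zfp991, its neighbour in the run, had 19, 25, 27 and 12 reads, and WT averaged 62.1 RPM ± 16.1 (SD, n = 2) against 34.4 RPM ± 9.01 (SD, n = 2) for KO, a log2 change of -0.80 (standard error 0.40; limma, adjusted p = 0.504). Without WT 2 it was -0.52.

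Zfp106 had 24, 28, 76 and 49 reads, and WT averaged 73.1 RPM ± 12.9 (SD, n = 2) and KO 114.5 RPM ± 0.252 (SD, n = 2), a log2 change of 0.65 (standard error 0.32; limma, adjusted p = 0.510). Its KO libraries were both above its WT libraries. The only other member that passed in any alternative was Zfp936, named after its values were seen. Without WT 1 it had a log2 change of -1.65 and an adjusted p of 0.0137 by limma, when 50 genes passed, and with all libraries -0.91 and 0.529; over the alternatives its adjusted p ran from 0.0137 to 0.998. Its change was -0.25 without WT 2 and -0.50 without KO 1. It had 13, 32, 16 and 17 reads, with WT 2 apart from the other libraries.

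Summed over genes, the run had 1069 (WT 1), 1638 (WT 2), 1487 (KO 1) and 1191 (KO 2) RPM, with no scaling beyond the total of the library. The 95% Wilson intervals of WT 1 (977 to 1170) and WT 2 (1509 to 1777) did not overlap. WT averaged 1353 RPM ± 402 (SD, n = 2) and KO 1339 RPM ± 210 (SD, n = 2), so the genotypes differed by far less than their libraries. The 40 other members had 1850, 2355, 2242 and 2421 RPM, with WT 1 lowest. Intervals cover counting error only.

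**Figure D5:**
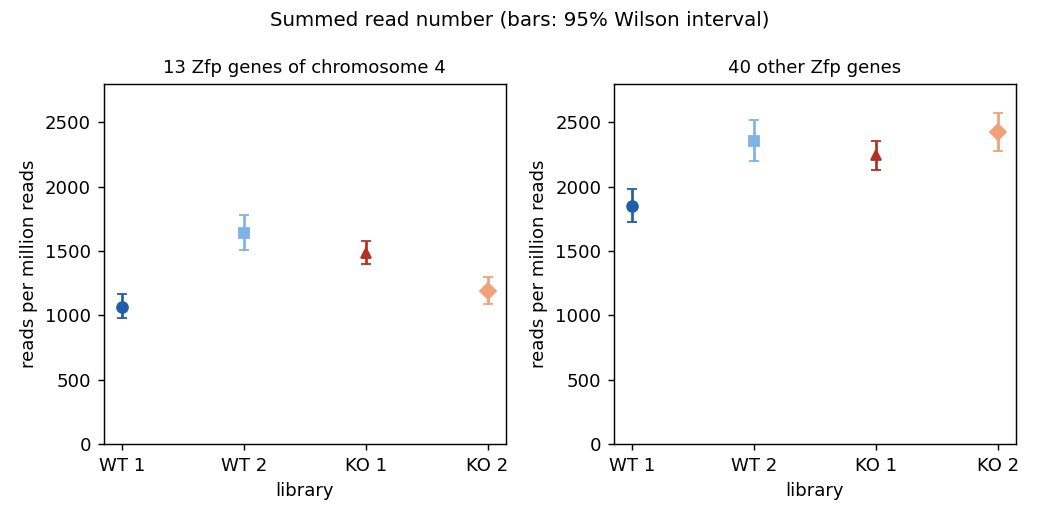
Reads per 1000000 reads (vertical axis, from 0) summed over the 13 Zfp genes of chromosome 4 (left) and the 40 other Zfp genes (right) in each library; bars are 95% Wilson intervals of the count. WT 1 is lowest in both panels, and the genotypes overlap in both.

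By role, RNA and protein handling had 12 members, the Zfp36 family and the ligases Zfp91, Zfp451 and Zfp598 among those listed. None passed; 6 had more reads in KO, the median log2 change was 0.08, and the range was -0.35 to 0.65. Imprinting and retroelement repression had 10 members, 5 of them higher in KO, with a median of -0.05 and a range of -0.51 to 0.57. Stem cell and developmental regulators had 10 members, of which 6 were higher in KO, with a median of 0.21, and none had enough reads for tail length. Zfp568 stood in both of these lists. The 22 members in no list had a median of -0.07. The run had a median of -0.20 with 5 of 13 higher, and the 40 other members 0.06 with 21 higher. The run and the imprinting and retroelement list are not separate groups: Zfp534, Zfp600, Zfp979, Zfp980, Zfp985, Zfp988 and Zfp992 stood in both. Zfp993 and Zfp991, with the lowest changes of the run, stood in no list.

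Partners of KRAB proteins were taken from a list of 18 genes, all of which were tested for read number. None passed, 11 were higher in KO, and their median log2 change was 0.05. Chd4, the NuRD remodelling ATPase, had 11 and 16 reads in WT and 64 and 32 in KO, a log2 change of 1.19 (standard error 0.39; limma, adjusted p = 0.277). Trim28, the corepressor that KRAB domains bind, had 313 and 248 reads in WT and 263 and 254 in KO, a log2 change of -0.70 (standard error 0.26; limma, adjusted p = 0.341). Without WT 2, in the fit where 367 genes passed, its change was -0.80 with an adjusted p of 0.0149 by limma, and without KO 1 it was -0.39; over the alternatives its adjusted p ran from 0.0149 to 0.998. These are raw reads, and KO 1 was the deepest library.

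The deposited table sorts genes into classes of Mov10 targets with and without m6A, a methylation of adenosine in messenger RNA, and non-targets; the source of the classes is not stated. Of the 53 members, 12 were targets with m6A (22.6%, against 18.8% of the 4815 genes tested for read number), 9 targets without m6A (17.0% against 34.0%) and 13 non-targets (24.5% against 31.4%). The other 19 (35.8% against 15.8%) were in no class, and 12 of the 13 run members were among them; Zfp600 was a target without m6A. The median log2 changes in read number were 0.05, 0.06, -0.11 and -0.19 in the members of the 4 groups in this order, and 0.17, 0.01, -0.10 and -0.04 over all genes of those groups.

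Tail length and read number were also set side by side across the members. Spearman's rho of summed reads and pooled median tail was 0.0271 over the 53 genes. Over the 16 with enough reads, rho of summed reads and the mean of the library medians was -0.43, and that of the 2 log2 changes was -0.14. These are descriptions across genes that share libraries and, in part, transcripts, and genes are not independent replicates.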

How the data were processed

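Per the labels' protocols, the authors enriched RNA with a tail on oligo(dT) beads, made barcoded libraries (SQK-RNA002, DeePlexiCon adapters) and ran them on a MinION. RNA with a very short tail may be lost on the beads. Per the submitters' processing notes, minimap2 2.20 was used; the basecaller, the tail length tool, the genome build and the annotation are not given in the sources used here. Per the file header, the deposited table has 1 line per read, naming its transcript, symbol and library, and a tail length in nt, an estimate that is not a count and has no recorded normalization.

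The 3 reads at or below 0 nt of 1903922 were left out. Symbols were used as deposited. Tail length was tested with limma 3.58.1 (R 4.3.3), with the log2 median per gene and library as the value (at least 20 reads in each library, trend on log2 mean reads). Reads per gene were counted here and tested with voom (mean of at least 10 reads, 0.5 added, median-of-ratios scaling). Both fits covered all genes, used genotype as the only term, and adjusted p-values by Benjamini-Hochberg with a threshold of 0.05. Both were also run on simulated data with known changes and a spread set alike for all genes. Those runs do not give the power in these libraries. Scaled RPM in the text uses the scaled library size, and unscaled RPM all reads. Shares have 95% Wilson intervals. Promoters were aligned with Biopython 1.88; other steps used pandas 2.3.3, scipy 1.17.1 and numpy 2.4.6 under Python 3.11.15.

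The members and the gene lists were chosen with earlier results of these data known. Values per library are given for members with at least 20 reads in each library, and a fold change with its test for the 3 smallest p-values in each test, since none passed; the 3 longest and 3 shortest tails are named for level, other members by counts, and 2 partner genes by p. Alternatives changed the tail summary, the read minimum, centring, scaling, the filter, the model, the use of shared transcripts and the replicate block, or left out a library.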

Additional observations from a re-analysis of the deposited data

How the results depend on the processing

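For tail length, the number of genes called over all genes was 0 in the main analysis and 1 with a minimum of 10 reads, and ranged from 0 to 4 (without WT 2) with a library left out. For read number it was 0, and 7 with scaling by total reads (6 higher, 1 lower, where the median of all genes was 0.11 and that of the members 0.12), 96 with no filter, 1 with reads given to the leading symbol, and 0 to 367 (without WT 2) with a library left out. The median read change of the members ranged from -0.15 to 0.21 with a library left out, and their median tail change from -0.21 to -0.01. With a library left out, 1 genotype has a lone library, which is assumed to vary like the other genotype. The relative tail level of the members was 0.09 to 0.17 over the 9 alternatives. The labels' replicate numbers were tested as a block. The correlation over genes of same-numbered deviations was 0.0135 for tails and 0.0155 for reads. Whether same-numbered libraries were prepared together is not stated, and this correlation cannot exclude it. With the replicate block 66 genes were called for read number (30 higher, 36 lower) and 0 for tail length, and with the crossed pairing as block, added after seeing the data, 37 and 0; no member was among them. The fold changes of Zfp534, Zfp600 and Zfp990 (tails) and of Zfp993, Zfp991, Zfp106, Chd4 and Trim28 (reads) kept their sign under the alternatives that could be run. With a minimum of 50 reads Zfp534 and Zfp600 could not be tested, and with reads on transcripts of 1 symbol alone Zfp534, Zfp600, Zfp990, Zfp993 and Zfp991 could not. The 37 members with fewer than 20 reads in a library were not tested for tail length in the main analysis; with a minimum of 10 reads 37 members in all were tested, and 0 passed.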
